A study of Homo sapiens with 6 samples.

Results

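Zinc finger genes whose symbol is ZNF followed by a number were described in HepG2, an established human hepatoma line, with and without an shRNA against KIF11. Of the 477 genes with such a symbol among the 20030 genes of the count table, 235 had at least 100 reads in every one of the 6 libraries and form the set described here. The other 242 lay under that floor, 34 of them with no read in any library, and 77 of the 242 were too low to be tested. The floor used the size of the counts in both groups alike and not their difference, but it was set on the same libraries that were compared. The numbers of genes that changed are therefore descriptions, and no conclusion rests on a test of the set as a whole.

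Control cells (sh-ctrl, 3 libraries) and KIF11 knockdown cells (sh-KIF11, 3 libraries) were made by lentiviral delivery of a pLKO.1 vector that expresses a short hairpin RNA. The hairpin of such an RNA is cut by the cell to a short guide, with which mRNA of matching sequence is degraded. KIF11 encodes the kinesin that slides microtubules apart to push the poles of the mitotic spindle away from each other. Both groups were the same cell line with the same type of vector, and they differed by the hairpin. The labels name KIF11 as the target and do not say how many hairpin sequences were used. Effects of the knockdown and of a particular hairpin cannot be told apart. Poly(A) RNA was sequenced from stranded libraries. The labels do not say whether the 3 libraries of a group came from separate cultures, so p-values measure the spread between these libraries, which may be technical. KIF11 itself had 1976, 2088 and 2039 reads in sh-ctrl against 1448, 1478 and 1240 reads in sh-KIF11, with no overlap between the groups. After scaling this was 115.8 ± 5.01 against 68.8 ± 5.16 CPM (SD, n = 3 libraries each), a log2 fold change of -0.75.

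Each library held between 18167773 and 19583282 counts. CPM below means counts scaled to library size with edgeR's TMM factors, which were 0.922 to 0.926 in sh-ctrl and 1.08 to 1.09 in sh-KIF11. A gene was called when its adjusted p (edgeR's quasi-likelihood test, Benjamini-Hochberg over 12369 tested genes) was under 0.05. The 8 hepatocyte markers ALB, AFP, APOA1, APOB, TTR, SERPINA1, FGB and TF were all expressed, and their summed level was 31900 to 33400 CPM in sh-ctrl and 14100 to 15300 CPM in sh-KIF11. Of the fibroblast markers, COL1A1, COL3A1, DCN and LUM were under 10 reads in every library, and the 5 markers summed to 2.55 to 3.7 CPM in sh-ctrl and 1.4 to 2.04 CPM in sh-KIF11. The leukocyte markers PTPRC and CD3E and the endothelial marker CDH5 were also under 10 reads in every library. The 4 leukocyte markers summed to 84.7 to 93.8 CPM in sh-ctrl and 44.8 to 49.4 CPM in sh-KIF11, and the 3 endothelial markers to 3.1 to 3.56 CPM and 4.69 to 4.98 CPM. The part of the hepatocyte marker change in the results below was not tested. In bulk RNA, fewer cells that express a gene and less RNA of it per cell cannot be told apart.

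A C2H2 zinc finger is a short loop of protein in which a pair of cysteines and a pair of histidines hold a zinc ion, and rows of such fingers read DNA bases. In humans many of these proteins carry a KRAB box at their start, which recruits TRIM28 (KAP1) and, through it, the histone methyltransferase SETDB1 and HP1 proteins (CBX1, CBX3 and CBX5), so that the bound DNA is packed into heterochromatin. KRAB zinc finger genes lie in large clusters on chromosome 19, arose by repeated duplication, and are best known for silencing transposable elements. Zinc finger proteins without a KRAB box are more varied, and include promoter activators, parts of chromatin complexes and proteins that bind RNA.

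The finger repeat typical of these proteins is shown here for some of the genes that changed much in either direction. Not every member has it, and 4 had no finger by the pattern search. Each line holds 28 codons of coding DNA from GENCODE release 29 (GRCh38), 5′ to 3′ on the strand of the gene, with the codons of the zinc-binding cysteines and histidines in capitals. The first 5 genes were higher in sh-KIF11 and the last 4 were lower.
ZNF84: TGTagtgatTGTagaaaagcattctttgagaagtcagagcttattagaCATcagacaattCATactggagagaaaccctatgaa
ZNF432: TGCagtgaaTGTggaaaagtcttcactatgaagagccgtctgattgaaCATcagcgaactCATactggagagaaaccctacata
ZNF195: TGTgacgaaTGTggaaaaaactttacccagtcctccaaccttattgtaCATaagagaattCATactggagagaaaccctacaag
ZNF182: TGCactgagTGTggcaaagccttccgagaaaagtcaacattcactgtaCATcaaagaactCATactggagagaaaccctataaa
ZNF853: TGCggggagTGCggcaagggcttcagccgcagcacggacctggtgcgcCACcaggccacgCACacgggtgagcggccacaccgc
ZNF771: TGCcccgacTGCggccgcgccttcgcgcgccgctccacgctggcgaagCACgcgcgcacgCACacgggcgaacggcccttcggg
ZNF775: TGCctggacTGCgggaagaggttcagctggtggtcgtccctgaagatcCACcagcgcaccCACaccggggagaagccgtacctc
ZNF787: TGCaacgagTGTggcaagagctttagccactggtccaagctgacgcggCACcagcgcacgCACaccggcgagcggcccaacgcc
ZNF101: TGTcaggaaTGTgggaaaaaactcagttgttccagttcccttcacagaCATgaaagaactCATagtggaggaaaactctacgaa
Spacing of the 4 capital codons is identical in all 9 lines because the search for printed fingers required it, while the bases between them differ. ZNF84, ZNF432, ZNF195 and ZNF182 use codons rich in A and T, and ZNF771, ZNF775 and ZNF787 use codons rich in G and C. The full coding sequences had a GC content of 40.7%, 40.3%, 42.0% and 41.0% in the former and of 71.4%, 72.6% and 73.4% in the latter. ZNF853, at 65.2% GC but higher in sh-KIF11, and ZNF101, at 44.3% GC but lower, go the other way and are shown for that reason. The lines are picked examples, and ZNF268 (1.04) and ZNF550 (0.99), which rose more than ZNF195 and ZNF182, are not shown. Coding GC content ran from 39.8% to 65.2% over the 10 largest rises and from 44.3% to 73.4% over the 10 largest falls. The 15 bases TGGAGAGAAACCCTA, which encode part of the linker between 1 finger and the next, occurred in the coding sequence of 61 of the 234 members that had one (26.1%) and of 167 of 19214 genes in all (0.869%). All 169 copies in the members were read in the same frame. These 15 bases were picked as the stretch of that length found in the most members. Their higher share among members follows in part from that choice, and the 19214 genes include the members.

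Positions of these 9 genes are given in GRCh38. ZNF84 lies at chr12:133037292-133063304 on the plus strand, ZNF432 at chr19:52031379-52095738 on the minus strand, and ZNF195 at chr11:3339261-3379222 on the minus strand. ZNF182 lies at chrX:47974851-48003978 on the minus strand and ZNF853 at chr7:6615617-6624290 on the plus strand. ZNF771 lies at chr16:30407297-30431108 on the plus strand, ZNF775 at chr7:150379335-150398631 on the plus strand, ZNF787 at chr19:56087366-56121280 on the minus strand, and ZNF101 at chr19:19668796-19683509 on the plus strand. Of all 235 members, 91 lay on chromosome 19, 22 on chromosome 16, 21 on chromosome 7 and 18 on chromosome 1.

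Members were expressed at low levels. Their median was 2.85 FPKM (reads scaled to transcript length and library size, a level that can be compared between genes), with a range from 0.464 to 85.7, whereas the genes at the same count floor had a median of 9.25 FPKM. The 5 highest members were ZNF593, ZNF207, ZNF511, ZNF664 and ZNF219, at 85.7, 42.2, 38.7, 36.8 and 29.2 FPKM over all 6 libraries. The 5 lowest were ZNF438, ZNF483, ZNF407, ZNF41 and ZNF555, between 0.464 and 0.698 FPKM. At the floor itself, ZNF669, ZNF438 and ZNF100 were just inside with lowest counts of 100, 101 and 101. ZNF23, ZNF576 and ZNF626 were just outside with lowest counts of 99, 99 and 98. ZNF23 had 99, 111 and 105 reads in sh-ctrl against 226, 217 and 234, and ZNF576 had 173, 183 and 181 against 135, 149 and 99. Each was kept out by 1 library, of sh-ctrl for ZNF23 and of sh-KIF11 for ZNF576.

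More members were higher than lower in sh-KIF11. Of the 235 members, 151 (64.3%) were called, of which 113 (48.1% of members) were higher and 38 (16.2%) were lower, while 84 were not called. Calls were common in the whole transcriptome, where 69.1% of all tested genes were called, 34.4% as higher and 34.7% as lower. Among the 9794 genes with at least 100 reads in every library, 71.3% were called, 30.6% as higher and 40.7% as lower. So the share of members called was slightly below that of genes at the same floor, and the split between directions was tilted towards higher. The median log2 fold change of members was 0.19 (quartiles -0.08 and 0.46), against -0.06 for the other 9559 genes at the floor. The groups were free of overlap in 154 members, 115 higher and 39 lower, where 71.2% of all tested genes and 73.2% of those at the floor did not overlap.

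The split depends on scaling. TMM set the median of all tested genes at 0.00, and library totals alone moved that median to 0.24. With library totals 156 members were higher and 20 lower, so that 88.6% of called members were higher in place of 74.8%, and limma on log2(FPKM + 1) gave 139 and 20 (87.4% higher). The share moved alike outside the set, from 49.8% to 73.6% of called genes among all tested genes and from 42.9% to 70.3% at the floor with library totals, and to 68.5% and 64.6% with limma on log2(FPKM + 1). Upper-quartile factors gave 125 and 30. In every one of these scalings the median of members lay above that of all tested genes. Changes below are relative to the middle of the transcriptome as TMM sets it.

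Few members changed by much. Only ZNF84, ZNF432 and ZNF268 were called with a rise of at least 2-fold, where 1.86% of genes at the floor were, and only ZNF771 was called with a fall of at least 2-fold, where 2.76% of genes at the floor were. All log2 fold changes of members lay between -1.01 and 1.23. Added up, the members took 5904 ± 65.8 CPM in sh-ctrl and 6403 ± 54.9 CPM in sh-KIF11 (SD, n = 3), a ratio of 1.08. The 3 values of each group did not overlap, and the sum follows the choice of members. An exact permutation test of it gave p = 0.1. That is the smallest value possible with 3 libraries per group, so this test cannot decide.

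ZNF84, a KRAB protein with 19 fingers, rose the most. It stood at 10.7, 11.4 and 11.1 CPM in sh-ctrl and at 26.6, 25.2 and 26.3 CPM in sh-KIF11. Every sh-KIF11 library was over 2 times every sh-ctrl library, and the log2 fold change was 1.23 ± 0.0894 (SE) (adjusted p = 8.75e-16, quasi-likelihood test of edgeR). ZNF268, a neighbour of ZNF84 at the end of chromosome 12 with 24 fingers and a KRAB box, stood at 13.6, 13.3 and 11.9 CPM against 25.3, 27.3 and 27.4 CPM. Its log2 fold change was 1.04 ± 0.0883. ZNF432, a KRAB protein linked to DNA repair, stood at 6.39, 7.81 and 6.75 CPM against 15.1, 13.4 and 15.7 CPM, a change of 1.07 ± 0.115.

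ZNF550, ZNF195, ZNF182, ZNF480 and ZNF224 are KRAB proteins as well, and their log2 fold changes were 0.99, 0.97, 0.96, 0.89 and 0.87. ZNF195 had the highest FPKM among them, and stood at 14.7, 14.7 and 16.2 CPM in sh-ctrl and 30.7, 31.4 and 27.4 CPM in sh-KIF11. ZNF224, known as a repressor of the aldolase A gene, stood at 6.73, 6.43 and 7.47 CPM against 12.7, 13.5 and 11.4 CPM. No library of the sh-ctrl group reached any of the sh-KIF11 group in these genes, as the rule for naming the largest changes required. The 10 largest rises included 8 genes with a KRAB box. The exceptions were ZNF853 at 0.92 and ZNF827 at 0.90. ZNF827, which brings the NuRD remodelling complex to telomeres in cells that maintain them by recombination, stood at 10.3, 10.9 and 10.4 CPM against 20.2, 19.2 and 19.4 CPM.

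ZNF771 fell the most. It stood at 16.7, 16.3 and 16.1 CPM in sh-ctrl and at 7.92, 9.08 and 7.35 CPM in sh-KIF11, which is a log2 fold change of -1.01 ± 0.107 (adjusted p = 5.1e-11, quasi-likelihood test of edgeR). The groups were far apart, and the rule for naming the largest changes admitted only genes without overlap. ZNF395, a factor induced by hypoxia, followed at 17.9, 22.8 and 21.6 CPM against 12.6, 9.23 and 12.5 CPM, a change of -0.86 ± 0.107. Its relative ZNF704 was at -0.54. ZNF101, ZNF775, ZNF787 and ZNF511 had log2 fold changes of -0.71, -0.68, -0.68 and -0.67, and of these only ZNF101 has a KRAB box. ZNF787 was the most abundant by reads, at 122, 121 and 113 CPM against 78.4, 73.0 and 71.5 CPM.

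ZNF473, which takes part in forming the 3′ end of histone mRNAs, stood at 26.3, 23.9 and 30.4 CPM in sh-ctrl and at 18.1, 18.7 and 17.6 CPM in sh-KIF11, which is a log2 change of -0.56. ZNF526 was at -0.55. The imprinted gene ZNF331, a KRAB member, was at -0.52, with 23.3, 23.1 and 20.9 CPM against 16.2, 15.7 and 14.96 CPM. Among the 10 largest falls the pattern search found a KRAB box in 2 genes, ZNF101 and ZNF331.

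**Figure D1:**
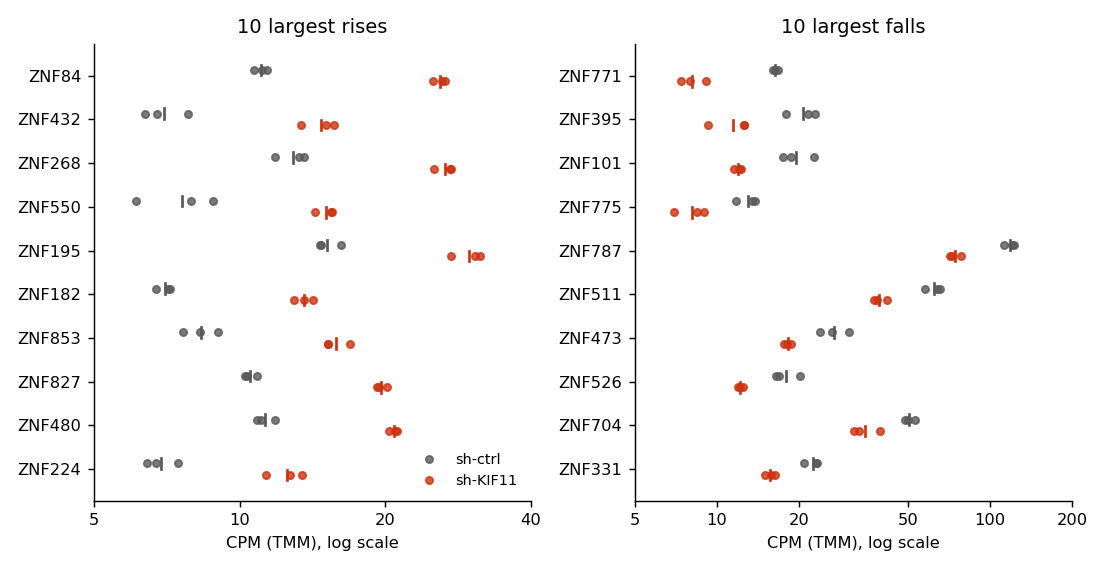
Level of the 10 members with the largest rise (left) and the 10 with the largest fall (right) in each library, in CPM on a log scale, with grey points for the 3 sh-ctrl libraries, red points for the 3 sh-KIF11 libraries and a short line at each mean. For all 20 genes the red points lie wholly to one side of the grey points, as the rule for naming them required, and most of the rises start from under 15 CPM.

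The members fell into classes by the proteins they encode. A pattern search for the KRAB box in the translated coding sequences, which asked for 12 of 17 conserved positions in a window of 31 residues, found it in 128 members and not in 106. ZNF503 had no coding sequence in the matched gene model and was left unclassified. The pattern misses divergent boxes such as that of ZNF473. Among genes at the floor 30.6% were called higher and 40.7% lower. Of the 128 members with the KRAB pattern, 74 were higher (57.8%), 10 were lower (7.81%) and 44 were not called, with a median log2 fold change of 0.36. Of the 106 without it, 39 were higher (36.8%), 28 were lower (26.4%) and 39 were not called. Their median of -0.0049 was also negative with RLE size factors (-0.0035). It was positive under upper-quartile factors (0.07), library totals (0.23) and FPKM (0.13 and 0.18). The KRAB median was positive in each of these scalings, between 0.30 and 0.59.

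Summed over genes, the KRAB members stood at 1938, 1935 and 1937 CPM in the sh-ctrl libraries and at 2351, 2421 and 2360 CPM in the sh-KIF11 libraries, a ratio of 1.23. All sh-KIF11 libraries were above all sh-ctrl libraries. Members without KRAB summed to 3925, 3907 and 3809 CPM and to 3955, 3956 and 3905 CPM, a ratio of 1.02 with overlapping groups. The 19 KRAB pattern genes at the same floor that have another kind of symbol were similar in direction to the KRAB members. Of these 11 were higher (57.9%) and 1 lower (5.26%), with a median of 0.31, where 30.6% of genes at the floor were higher and 40.7% lower.

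**Figure D2:**
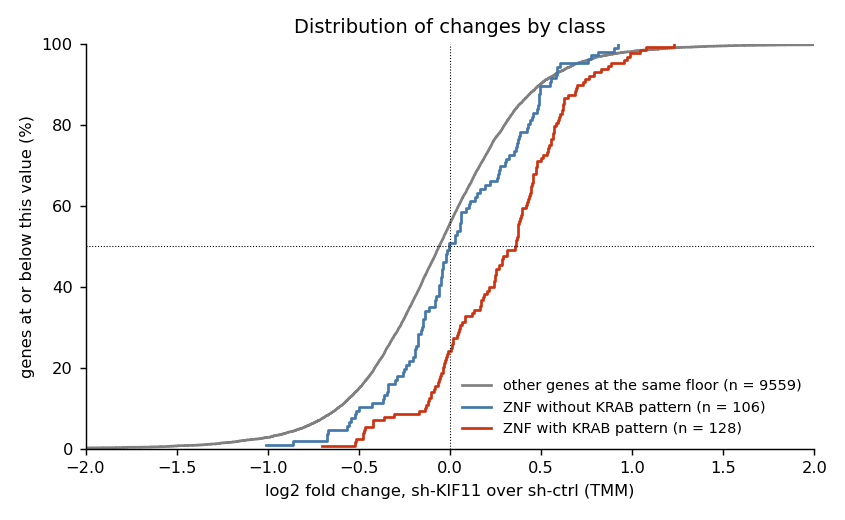
Cumulative share of genes (vertical axis, %) at or below each log2 fold change of sh-KIF11 over sh-ctrl (horizontal axis, TMM scaling; a few other genes lie outside the range drawn), for the 128 members with the KRAB pattern, the 106 without and the 9559 other genes with at least 100 reads in every library. The KRAB curve crosses 50% at 0.36, to the right of the curves of the members without KRAB (-0.0049) and of the other genes (-0.06).

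Chromosome and finger number went along with the KRAB class. The 91 members on chromosome 19 had 50 higher (54.9%) and 15 lower (16.5%) with a median of 0.31. The 144 elsewhere had 63 higher (43.8%) and 23 lower (16%) with a median of 0.10. Beside them, 30.6% of genes at the floor were called higher and 40.7% lower. Within the KRAB class the 70 genes on chromosome 19 had a median of 0.37 (44 higher, 5 lower) and the 58 elsewhere 0.25 (30 higher, 5 lower). The 21 members on chromosome 19 without KRAB had a median of -0.16, with 6 higher and 10 lower, whereas the 85 without KRAB elsewhere had a median of 0.04, with 33 higher and 18 lower. Finger number ran from 0 to 31 by the pattern search, with a median of 9. Members with 0 to 4, 5 to 9, 10 to 14 and 15 or more fingers had medians of -0.05, 0.05, 0.34 and 0.39. Of the 42 members with 15 or more fingers 26 were higher (61.9%) and 3 were lower (7.14%). Of the 42 with 0 to 4 fingers 14 were higher (33.3%) and 11 were lower (26.2%). ZNF91 and ZNF142 had the most fingers, 31 each, and were at 0.25 (called) and -0.05 (not called). The medians of the chromosome, finger and GC classes were computed with TMM, which the shift given above would move as a whole.

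GC content moved with these changes. The coding sequences of KRAB members had a median GC content of 43.4%, those of members without KRAB 54.1%, and those of other genes at the floor 52.1%. Across the 234 members with a coding sequence, the Spearman correlation of log2 fold change with coding GC content was -0.556. It was -0.445 within the 128 KRAB members, -0.534 within the 106 others, and -0.372 over 9534 other genes at the floor. These are correlations across genes of the same 6 libraries, whose points are not independent, and they are given without a test.

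**Figure D3:**
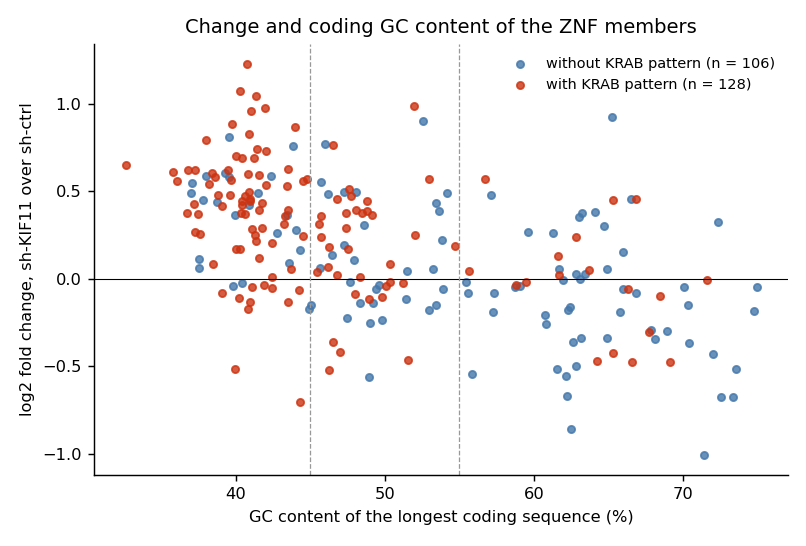
Log2 fold change of sh-KIF11 over sh-ctrl (vertical axis) against the GC content of the longest coding sequence in percent (horizontal axis) for 234 members, red with the KRAB pattern and blue without, with dashed lines at 45% and 55%. Most points under 45% GC lie above 0, and the points over 55% GC, which are mostly blue, lie on both sides of 0.

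Under 45% GC the classes were alike. Of the 75 KRAB members in that range 54 were higher and 2 lower, with a median of 0.44, and of the 23 members without KRAB 17 were higher and 1 was lower, with a median of 0.42. Of the 2354 other genes in that range 1230 were higher (52.3%) and 415 lower, with a median of 0.18, so that a higher share of the members than of other genes of low GC content was called higher (72.4% of 98). Between 45% and 55% GC, 17 of 35 KRAB members were higher and 4 lower, 11 of 31 without KRAB were higher and 4 lower, and 989 of 3345 other genes were higher and 1322 lower. Over 55% GC, 14 of 70 members were higher and 27 were lower, against 658 and 2196 of 3835 other genes. The 18 KRAB members in that range had 3 higher and 4 lower, with a median of -0.01.

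Removing the GC trend of each library, an alternative added after seeing the data, left 89 members higher and 40 lower, with a median of 0.13. With the same correction 2996 of 9794 genes at the floor were higher and 3855 lower, with a median of -0.04. Among all 12369 tested genes 4245 were higher and 4128 lower under this correction. Under it the KRAB members had 51 higher and 18 lower and a median of 0.17, and the members without KRAB had 38 higher and 22 lower and a median of 0.09. Expression level moved with the result too. Among the least expressed genes at the floor, up to the lower quartile of 4.19 FPKM, 83 of 161 members were higher and 17 lower, against 978 and 470 of 2288 other genes. From 4.19 to 9.25 FPKM, 23 of 51 members were higher and 10 lower, against 868 and 730 of 2397. From 9.25 to 22.1 FPKM, 5 of 16 members were higher and 7 lower, against 668 and 1092 of 2432. Above the upper quartile, 22.1 FPKM, 2 of 7 members were higher and 4 lower, against 369 and 1653 of 2442. Median changes of members and other genes were 0.26 and 0.12 in the lowest range and 0.03 and 0.04 in the next. They were -0.11 and -0.09 from 9.25 to 22.1 FPKM, and -0.23 and -0.29 above it. By median, members lay above other genes only in the lowest and highest ranges. The part of GC content and of expression level in the difference between members and other genes was not tested further.

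**Figure D4:**
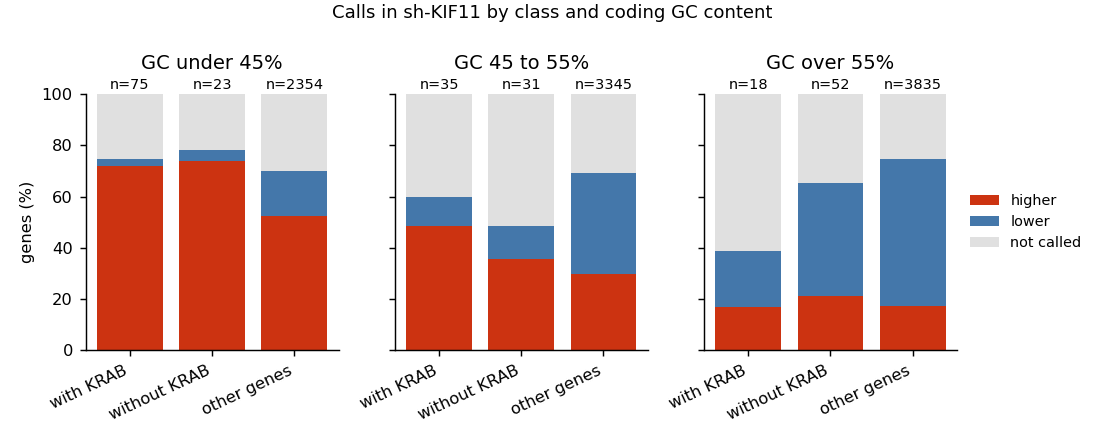
Share of genes (%) called higher (red), called lower (blue) or not called (grey) in sh-KIF11 for KRAB members, members without KRAB and other genes with at least 100 reads in every library, in 3 ranges of coding GC content, with the number of genes above each bar. In the lowest range both member classes have over 70% called higher against 52.3% of other genes, and in the highest range lower calls outnumber higher calls in all 3 classes.

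Members with better known roles were listed by role. Among the KRAB repressors with known targets, 4 of 6 were higher and 1 was lower, where 30.6% of genes at the floor were called higher and 40.7% lower. ZNF274, which directs SETDB1 to the ends of zinc finger genes, stood at 19.5, 18.95 and 18.5 CPM in sh-ctrl and at 26.5, 29.7 and 28.5 CPM in sh-KIF11, which is a log2 change of 0.57 ± 0.0814 with well separated groups. ZNF445, which guards imprinted loci, was at 0.36, ZNF91, a repressor of SVA retrotransposons, at 0.25, and ZNF202, a repressor of lipid metabolism genes, at 0.25. Without sh-KIF11 2 the calls of ZNF91 and ZNF202 were lost (0.18 each), and without sh-ctrl 2 that of ZNF202 was (0.19). ZNF282, which binds the long terminal repeat of a human retrovirus, was lower, at 58.9, 58.5 and 54.2 CPM against 44.2, 41.8 and 42.1 CPM, a change of -0.42. ZNF263 was not called (-0.08), and its KRAB box, known from the literature, was missed by the pattern.

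Of 8 promoter activators 4 were higher and 4 were not called, where 30.6% of genes at the floor were called higher and 40.7% lower. ZNF148 and ZNF281, related factors that bind GC-rich promoters, changed by 0.49 each. ZNF148 stood at 26.4, 26.8 and 28.1 CPM against 37.2, 38.9 and 37.8 CPM, and ZNF281 at 35.3, 34.8 and 36.7 CPM against 50.6, 51.2 and 48.7 CPM, in both cases without overlap. ZNF335, a component of a histone H3 methyltransferase complex, and ZNF131, a BTB domain factor, were both at 0.26. ZNF143, which binds promoters and chromatin loop anchors, was at 0.14, and its relative ZNF76 at -0.04. Neither was called, nor were ZNF384 (-0.08) and ZNF410 (-0.06), the activator of CHD4. ZNF143 was called without sh-ctrl 3 (0.21), with upper-quartile factors (0.22), with library totals (0.37) and on the FPKM scale (0.26 and 0.32). ZNF384 was called without sh-ctrl 3 (-0.15), and ZNF76 was called as higher with library totals (0.19).

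The list of chromatin complexes and corepressors held 10 members, of which 6 were higher and 4 lower by edgeR, where 71.3% of genes at the floor were called. Besides ZNF827, ZNF644, a partner of the methyltransferases EHMT1 and EHMT2, was at 0.59 and ZNF638, which recruits the HUSH complex to foreign DNA, was at 0.58. ZNF638 stood at 80.6, 84.4 and 80.6 CPM in sh-ctrl and at 116, 131 and 120 CPM in sh-KIF11, and ZNF644 at 32.8, 34.1 and 30.04 CPM and 48.7, 49.3 and 47.8 CPM. The SUMO ligase ZNF451 was at 0.37, ZNF609 at 0.22 and ZNF516 at 0.15. The call of ZNF516 was marginal (adjusted p = 0.0423 in edgeR's quasi-likelihood test, overlapping libraries). It was not made by DESeq2 (adjusted p = 0.0654) or without the low-count filter (0.0638), and leaving out any one of sh-ctrl 2, sh-ctrl 3, sh-KIF11 1 and sh-KIF11 2 ended it, with values between 0.09 and 0.15.

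ZNF592 and ZNF687, which share a complex with ZMYND8, were lower by edgeR, at -0.19 and -0.26. ZNF217, an oncogene product that binds CtBP and the demethylase LSD1, was at -0.25, and ZNF219, a partner of SOX9, at -0.37. ZNF217 stood at 112, 125 and 126 CPM against 104, 105 and 96.1 CPM. These 4 falls are small, and with library totals alone ZNF592 turned to 0.04 while ZNF217 and ZNF687 were no longer called, at -0.02 and -0.03. None of the 4 was called on the FPKM scale.

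Among members that act on RNA, ribosomes or the spindle, 1 was higher, 2 were lower and 5 were not called. At the floor 71.3% of genes were called, 30.6% as higher and 40.7% as lower. ZNF593, a factor of large ribosomal subunit assembly and the most abundant member per length, stood at 66.9, 66.2 and 66.4 CPM in sh-ctrl and at 46.6, 43.5 and 50.9 CPM in sh-KIF11. The groups were well apart, with a log2 fold change of -0.50 ± 0.0646. ZNF207 (BuGZ), which binds microtubules and carries BUB3 to kinetochores, stood at 175, 182 and 192 CPM against 151, 156 and 162 CPM, a change of -0.23 that was 0.0042 with library totals alone and was not called on the FPKM scale. ZNF326, a subunit of a complex that couples elongation to splicing, was at 0.36. The ligase of collided ribosomes ZNF598 (-0.06), the ribosome factor ZNF622 (-0.15), the double-stranded RNA binder ZNF346 (-0.06) and the splicing proteins ZNF830 (-0.12) and ZNF318 (-0.04) were not called. Without sh-ctrl 3 ZNF598 (-0.13) and ZNF622 (-0.18) were called, and without sh-KIF11 3 ZNF622 (-0.20) was. With library totals ZNF598 (0.17), ZNF346 (0.17) and ZNF318 (0.19) were called in the other direction, as higher.

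**Figure D5:**
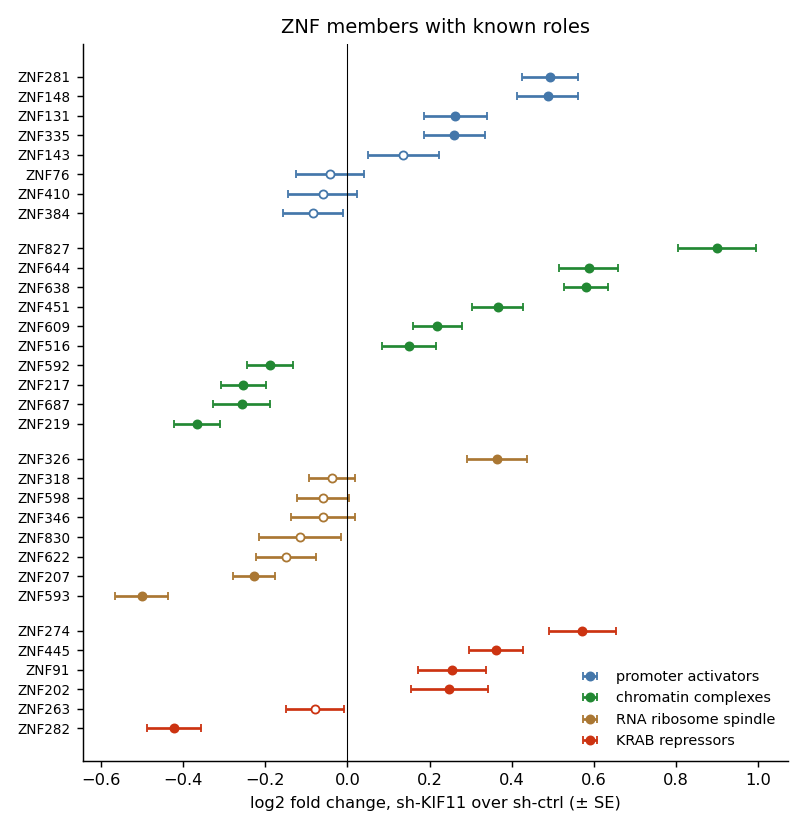
Log2 fold change of sh-KIF11 over sh-ctrl with its standard error (horizontal axis) for 32 members grouped by known role, with filled points for genes called at an adjusted p under 0.05 (edgeR's quasi-likelihood test) and open points for the rest. Chromatin complex members lie on both sides of 0, from ZNF827 at 0.90 to ZNF219 at -0.37. Of 6 KRAB repressors 4 lie above 0 and were called, where 30.6% of genes at the floor were called higher.

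Corepressor and heterochromatin genes, of which only some are partners through which KRAB proteins act, were split between directions. In a list of 37 corepressor and heterochromatin genes, 13 were higher (35.1%) and 17 lower (45.9%), beside 30.6% and 40.7% of genes at the floor, with a median of -0.10 that turned to 0.13 with library totals and 0.04 and 0.05 on the FPKM scale. TRIM28, the protein that KRAB boxes bind, stood at 422, 403 and 372 CPM in sh-ctrl and at 287, 281 and 278 CPM in sh-KIF11, which is a log2 change of -0.50 ± 0.0499 without overlap. SETDB1 was not called at 0.07, but it was with library totals (0.30) and on the FPKM scale (0.17 and 0.20). ATF7IP, which stabilises SETDB1, stood at 21.5, 19.8 and 22.9 CPM against 36.7, 37.9 and 38.3 CPM, a change of 0.81. The 3 HP1 genes differed, with CBX5 at 0.62, CBX3 not called at -0.03, and CBX1 at -0.19 by edgeR but 0.04 with library totals alone. CBX3 was called as higher with library totals (0.20) and on the FPKM scale (0.15 and 0.16).

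The largest rise in that list was that of ATRX, a chromatin remodeller that deposits histone H3.3 with DAXX, at 48.5, 47.8 and 39.9 CPM in sh-ctrl against 95.7, 95.7 and 96.1 CPM in sh-KIF11, which is a log2 change of 1.08. MORC3, an ATPase of nuclear bodies, was at 0.80. The methyltransferase SUV39H1 had the largest fall, at 26.5, 30.4 and 25.5 CPM against 15.6, 14.4 and 15.2 CPM, a change of -0.87, and CHAF1B, a subunit of the histone chaperone that works at replication forks, was at -0.53.

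Related zinc finger families with other symbols (ZBTB, ZSCAN, ZKSCAN, ZFP, or ZNF with a number and a letter) that passed the same floor numbered 71. Of these 33 were higher (46.5%), 7 were lower (9.86%) and 31 were not called, where 30.6% of genes at the floor were higher and 40.7% lower. Their median was 0.19, the same as that of the 235 members to 2 decimals. Reads that match several finger genes could blur single values. Of the members, 28 shared at least one stretch of 100 bases with another gene, and 6 shared over 5% of such stretches, namely ZNF417, ZNF322, ZNF443, ZNF799, ZNF587 and ZNF552. ZNF417 and ZNF587 match each other, and ZNF417 shared 24.1% of its stretches. Their values (0.04 for ZNF417, 0.36 for ZNF587, 0.42 for ZNF322, -0.42 for ZNF552, -0.17 for ZNF443 and -0.14 for ZNF799) are uncertain. The 229 members that shared less had 111 higher and 37 lower, with a median of 0.19.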

How the data were processed

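Poly(A) RNA of HepG2 cells was sequenced in 3 sh-ctrl and 3 sh-KIF11 libraries. The knockdown columns of the deposited tables are named only shRNA and were taken as sh-KIF11, since sh-KIF11 is the only knockdown among the labels. The authors deposited raw counts per gene and, in a second table, FPKM values of the same genes, which are scaled by length and depth. The submitters' processing notes name bcl2fastq 1.8.4, Trimmomatic, HISAT2 2.1.0, Cufflinks 2.2.1, HTSeq 0.9.1, DESeq and GRCh38. How multi-mapping reads and strand were handled is not given in the sources used here.

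Counts were fitted in R 4.3.3 with edgeR 4.0.16 (TMM, filterByExpr, quasi-likelihood test, group as the only term). The filter kept 12369 genes and left out 7661. Adjusted p-values (Benjamini-Hochberg) were two-sided with a threshold of 0.05. Gene positions, coding sequences, finger patterns (C-X(2,4)-C-X(12)-H-X(3,5)-H), KRAB boxes and coding GC content came from GENCODE release 29 (GRCh38), to which 19457 of 20030 genes and all 235 members were matched. Translated coding sequences stood in for the RefSeq proteins first planned. Shared sequence was measured as 100-base stretches in place of protein identity. The finger printed for a gene is the first of spacing C-X(2)-C-X(12)-H-X(3)-H that is followed by another 28 residues on. Those that hold the shared 15 bases were taken first.

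The members, lists and tests were chosen with earlier results of these data known. Named genes were the 10 called members with the largest rise and the 10 with the largest fall without overlap of libraries, the 5 highest and 5 lowest by FPKM, members with listed roles, 3 genes on each side of the floor, KIF11, and TRIM28, SETDB1, the HP1 genes and the 3 largest changes each way of the corepressor list. ZNF142, ZNF503 and the genes with shared stretches were named after their values were seen.

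Counts of libraries of the same group were further apart than counting error allows (chi-square over its degrees of freedom 2.68 to 7.97), so none was taken for a library deposited again. This does not show that they came from separate cultures. On simulated counts of 12329 genes, 198 tested genes were changed 2-fold in either direction and all others were unchanged, at a common dispersion of 0.00237. Of the changed genes edgeR recovered 95.5% and called 5 others. DESeq2 1.42.0 recovered 91.4% and called 3 others, and limma 3.58.1 on log2(value + 1) recovered 94.4% and called 4 others. In the data 69.1% of tested genes were called and few members changed by 2-fold, so these rates do not carry over to the member calls. Alternatives were RLE, upper-quartile and library-total scaling, no filter, at least 10 counts in every library, limma on log2(FPKM + 1) and log2(FPKM + 0.1), DESeq2, the replicate block, each library left out, and floors of 50 and 200 counts. Removal of a GC trend (lowess of each library's deviations, span 0.3) was added after seeing the data.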

Additional observations from a re-analysis of the deposited data

How the results depend on the processing

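Of the 151 called members, 115 were called in the same direction under every alternative but the GC correction, which was not counted, (97 higher, 18 lower) and none was called in the opposite direction. The number of called members was 142 to 153 of 235 with a library left out. At a floor of 200 counts it was 94 of 144 members (64 higher, 30 lower), and at 50 counts 197 of 308 (156 higher, 41 lower). The share called among all genes at those floors is not given here. The median log2 fold change of members, 0.19, was 0.27 with upper-quartile factors, 0.42 with library totals, 0.24 and 0.33 with limma on log2(FPKM + 1) and log2(FPKM + 0.1), 0.26 and 0.10 at floors of 50 and 200 counts, and 0.13 with the GC trend of each library removed. It was 0.17 to 0.22 with a library left out. The numbers of the replicates do not pair the libraries (correlations of deviations 0.03, -0.0185 and -0.00253 for equal numbers), and the replicate block gave 151 called members, as did the fit without it. The members just inside the floor had standard errors of 0.138 (ZNF438), 0.136 (ZNF669) and 0.128 (ZNF100), against 0.0509 for the well expressed ZNF207. Of the 72 named genes tested, 56 were called. Under at least 1 alternative 12 of these lost the call, 3 of them (ZNF207, ZNF592 and CBX1) with a change of sign, and 11 of the other 16 gained a call, among them ZNF76, ZNF598, ZNF346, ZNF318 and CBX3 as higher with library totals. The cause was not tested. Values whose sign differed from that given by TMM were as follows. With library totals the log2 fold changes were ZNF207 0.0042, ZNF438 0.21, ZNF555 0.099, ZNF76 0.19, ZNF384 0.15, ZNF410 0.17, ZNF592 0.041, ZNF598 0.17, ZNF622 0.081, ZNF346 0.17, ZNF830 0.12, ZNF318 0.19, ZNF263 0.15, CBX1 0.041, CBX3 0.20. With upper-quartile factors ZNF438 0.059, ZNF76 0.037, ZNF410 0.019, ZNF598 0.018, ZNF346 0.018, ZNF318 0.041, CBX3 0.046. With limma on log2(FPKM + 1) ZNF438 0.021, ZNF555 0.006, ZNF76 0.11, ZNF384 0.0901, ZNF410 0.14, ZNF598 0.11, ZNF622 0.048, ZNF346 0.071, ZNF830 0.046, ZNF318 0.11, ZNF263 0.0301, CBX3 0.15. With limma on log2(FPKM + 0.1) ZNF438 0.058, ZNF555 0.013, ZNF76 0.14, ZNF384 0.11, ZNF410 0.16, ZNF598 0.11, ZNF622 0.051, ZNF346 0.11, ZNF830 0.053, ZNF318 0.12, ZNF263 0.035, CBX3 0.16. With at least 10 counts in every library ZNF438 0.0057. With 1 library left out ZNF438 ranged from -0.0951 to 0.0241, ZNF76 from -0.0911 to 0.0596 and ZNF410 from -0.12 to 0.0461.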
